A study of Mus musculus with 3 samples.

Results

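Iron and zinc handling was examined through 10 genes, Fth1, Ftl1, Tfrc, Slc11a1, Slc11a2, Slc40a1, Mt1, Mt2, Slc39a14 and Slc30a1, out of 36870 gene names on the array. They were grouped by their known roles and found by an exact match of the gene name, a rule that uses no signal, although the set was proposed with earlier results of these data known. Levels were measured in RAW264.7 cells, a mouse macrophage cell line, on 1-colour Agilent arrays. The 3 conditions were macrophages challenged for 3 h with LPS, a lipopolysaccharide of Gram-negative bacteria recognised by TLR4, and macrophages given the LOC1 strain or the LOC3 strain of Lactiplantibacillus plantarum before the same challenge. The series design gives 12 h for the lactobacilli, the methods of the study give a longer exposure, and the LPS dose also differs between parts of its text. All 3 conditions therefore received LPS, and unchallenged macrophages enter only through the deposited log2 ratios, since their own array is not analysed here. Each condition has 1 array, so the differences between conditions carry no SD, no test and no p-value.

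Macrophages take up transferrin-bound iron through the receptor encoded by Tfrc, move it out of endosomes and phagosomes through Slc11a2 (DMT1) and Slc11a1 (NRAMP1), store it in ferritin made of Fth1 and Ftl1 chains, and release it through ferroportin, encoded by Slc40a1. Zinc enters through importers such as Slc39a14 (ZIP14), which also carries iron that is not bound to transferrin, leaves the cytosol through Slc30a1 (ZnT1), and is buffered by the metallothioneins Mt1 and Mt2. The zinc-sensing factor MTF1 acts on metal response elements in the promoters of metallothionein genes and of Slc30a1. Activated macrophages are known to withhold both metals from microbes.

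The promoters of Mt1, Mt2 and Slc30a1 are shown because they are the textbook targets of MTF1 and because their transcripts are compared below. Each window runs from 250 bases before to 50 bases after the RefSeq start in GRCm38.p6, on the plus strand, at chr8:94178839-94179138 for Mt1, chr8:94172368-94172667 for Mt2 and chr1:191906531-191906830 for Slc30a1. Capitals mark the core of the metal response element, searched as TGCACNC or TGCGCNC on both strands.
Mt1: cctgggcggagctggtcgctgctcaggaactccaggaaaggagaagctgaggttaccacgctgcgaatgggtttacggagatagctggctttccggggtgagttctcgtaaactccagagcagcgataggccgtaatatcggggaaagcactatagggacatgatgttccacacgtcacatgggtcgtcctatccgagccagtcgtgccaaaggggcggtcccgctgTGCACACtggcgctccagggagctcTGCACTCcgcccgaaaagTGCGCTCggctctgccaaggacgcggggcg
Mt2: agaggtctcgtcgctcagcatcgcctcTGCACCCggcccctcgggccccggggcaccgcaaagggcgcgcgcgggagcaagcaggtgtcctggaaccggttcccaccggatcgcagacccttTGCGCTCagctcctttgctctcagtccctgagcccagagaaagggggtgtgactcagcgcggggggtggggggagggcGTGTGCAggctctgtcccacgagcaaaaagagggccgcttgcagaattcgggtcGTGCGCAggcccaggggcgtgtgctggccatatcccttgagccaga
Slc30a1: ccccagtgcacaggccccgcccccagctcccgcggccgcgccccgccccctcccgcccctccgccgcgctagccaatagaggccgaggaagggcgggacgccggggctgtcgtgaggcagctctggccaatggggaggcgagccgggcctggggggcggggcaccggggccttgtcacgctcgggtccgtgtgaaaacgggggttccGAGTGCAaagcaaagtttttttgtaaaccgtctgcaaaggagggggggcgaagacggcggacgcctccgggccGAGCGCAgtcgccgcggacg

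The core occurred 3 times in the Mt1 window, 4 times in the Mt2 window and 2 times in the Slc30a1 window. In Mt1 all the matches lay near the start, with first bases at -23, 2 and 20 relative to it. In Mt2 they were spread from -223 to 4, and in Slc30a1 they began at -43 and 30. The core is short and therefore common. It was present in 25.7% of the 32851 mouse windows, 2 or more copies were present in 7.11%, and 4 or more in 0.517%. Of the 10 genes, 7 had a window, 3 had none in the table used (Slc11a2, Slc40a1 and Slc39a14), and the fourth gene with a match was Tfrc, whose upstream window held 2 overlapping matches beginning at -53 and -50. The core of the antioxidant response element, TGACNNNGC, was found once each in Mt2 and Slc30a1, beginning at -79 and -82, against 12.4% of all windows. These matches are descriptions of letters and were not set against the signals by a test.

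**Figure D1:**
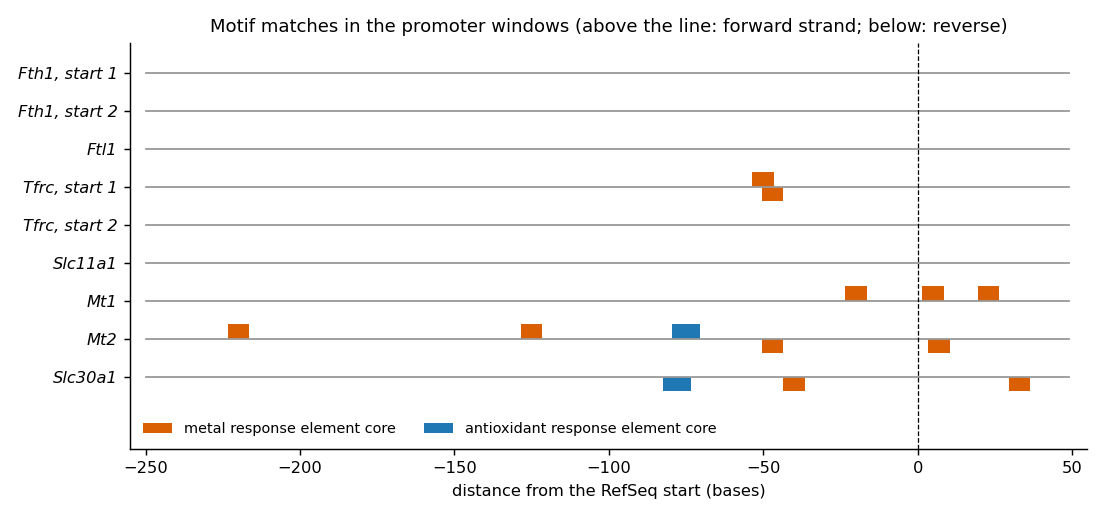
Positions of metal response element cores and antioxidant response element cores in the RefSeq promoter windows of the genes, in bases from the annotated start, with marks for each match. Mt2 holds 4 metal response element cores, Mt1 holds 3, and Slc30a1 and 1 window of Tfrc hold 2 each.

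The 10 genes are covered by 17 probes, each printed on 1 spot, of which 16 were well above background on all 3 arrays. Intensities are the scanner signal after background subtraction. Differences are given on the log2 scale after each intensity was divided by the 75th percentile of its array, which was 367 on the LPS array, 332 after LOC1 and 334 after LOC3. An equal intensity therefore reads 0.15 higher with LOC1 and 0.14 higher with LOC3 than with LPS. The brightest probe stood for a gene, and probes of different genes were not compared in level. Probes printed 10 times per array gave an SD of 0.06 for the log2 difference between 2 spots of bright probes, whose median intensity was from 78749.5 to 84615 on the arrays, and 0.32 for dim ones. That SD covers the spot alone and not the culture, the RNA or the labelling, and almost no repeated probe lay between these brightness ranges, so it speaks for the bright probes of Fth1, Ftl1, Mt1 and Mt2 and gives no spot error for Tfrc, Slc11a2, Slc40a1, Slc39a14 or Slc30a1. All 9 macrophage markers, among them Ptprc, Cd68, Csf1r, Itgam and Lyz2, were well above background on all 3 arrays, with summed intensities of 509165, 409832 and 444944 for LPS, LOC1 and LOC3. Of 5 epithelial markers, 4 were not well above background on any array, and Cd3e, a lymphocyte marker, was well above it on all 3. The 3 fibroblast markers were detected but dim, with summed intensities of 125, 90.0 and 100.1. The arrays measure bulk RNA, in which fewer cells of a type and less RNA per cell cannot be told apart.

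With LOC1 before LPS, 1 of the 10 genes was past 2-fold, Slc39a14, which was lower. Of all 20019 genes compared, 6.21% were past 2-fold and 3.5% were lower by that much, so the share among these 10 genes was near that of the array as a whole. With LOC3 none was past 2-fold, where 6.11% of 19790 genes were. At 1.5-fold, Slc40a1 and Slc30a1 were also past the threshold, both higher, with LOC1. Past 1.5-fold with LOC1 were 19.2% of all genes, 8.75% being higher by that much. With LOC3 only Slc39a14 was past 1.5-fold, on the lower side, against 17.4% of all genes, 8.71% being lower by that much. The 10 genes divided evenly in direction with each strain, 5 above the LPS array and 5 below, where 53.7% of all genes were above with LOC1 and 58.1% with LOC3. Their median difference was 0.05 with LOC1 and 0.07 with LOC3, beside 0.03 and 0.07 over all genes. Both comparisons use the same LPS array, so their shared direction is no independent support.

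**Figure D2:**
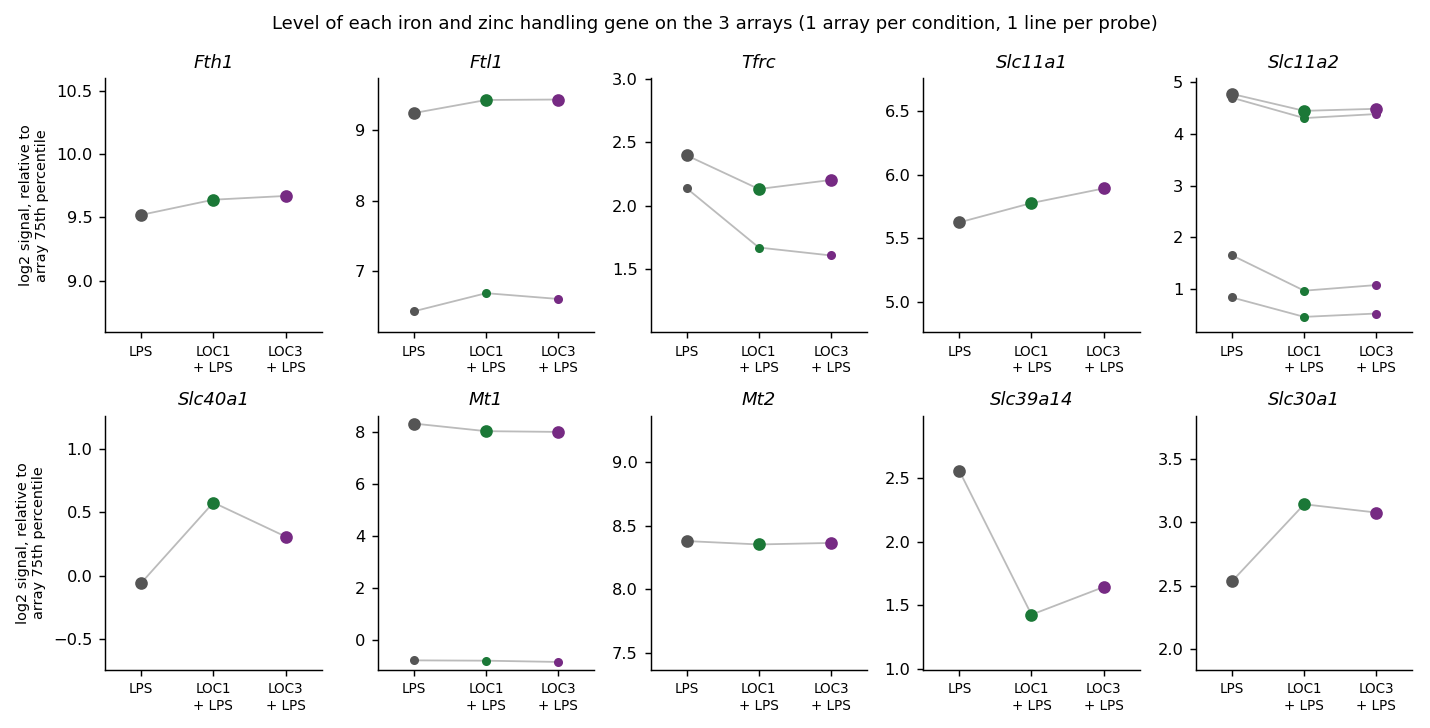
Normalized log2 signal of every detected probe of the 10 genes on the 3 arrays, relative to the 75th percentile of each array, with 1 line per probe, the brightest probe as the large point and a separate vertical scale for each gene. With either strain Slc39a14 lay below its LPS level, Slc40a1 and Slc30a1 lay above it, and Mt2 differed by -0.03 and -0.01.

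The ferritin chains, the store of cellular iron, were slightly higher with both strains, except that Fth1 with LOC3 read -0.0044 under quantile normalization. Fth1, the heavy chain with ferroxidase activity, read 269785 on the LPS array, 265025 after LOC1 and 271897 after LOC3 in intensity. After scaling, this was a log2 difference of 0.12 with LOC1 and 0.15 with LOC3, a position that 74.8% of all genes reached or passed with LOC1, and the LOC1 value lay within 2 times the spot SD. Ftl1, the light chain, is covered by a pair of probes, and the mouse genome holds near-identical copies of it that such probes may also bind. The brighter read 223267 on the LPS array, 229673 after LOC1 and 231882 after LOC3 in intensity, a difference of 0.19 with each strain, and the other gave 0.26 and 0.18. The light chain was thus above the LPS array by both probes. Among 6 reference genes the differences ran from -0.03 to 0.30 with LOC1, with a median of 0.10, and from -0.03 to 0.34 with LOC3, with a median of 0.14. Gapdh was the highest with each strain, and Actb stood at 0.07 and 0.12. The Fth1 probe lies at chr19:10059485-10059544 and the brighter Ftl1 probe at chr7:52713318-52713377, in mm9, the build of the file headers. Ferritin is controlled largely at translation by iron regulatory proteins, and protein was not measured.

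The genes of iron uptake did not move together. Tfrc read 1936 on the LPS array, 1457 after LOC1 and 1538 after LOC3 in intensity on its brighter probe (chr16:32620470-32620529), which was lower by 0.27 and 0.19 on the log2 scale. A second probe, 11785 bases further along, read 1618, 1059 and 1019 and gave differences of -0.47 and -0.53. The receptor transcript was thus lower with both strains on both probes, by unlike amounts. Slc11a1, the phagosomal metal pump that affects resistance to intracellular bacteria, was on the other side of the LPS array. Its intensity was 18118 on the LPS array, 18207 after LOC1 and 19819 after LOC3 (chr1:74432161-74432220), a difference of 0.15 with LOC1 and 0.27 with LOC3.

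Slc11a2, the endosomal iron transporter, was lower with both strains on all 4 of its probes. The brightest (chr15:100218333-100218392) read 10037 on the LPS array, 7236 after LOC1 and 7476 after LOC3, a difference of -0.33 and -0.29. Its neighbour 879 bases away gave -0.39 and -0.32, and the farthest, 22183 bases away, gave -0.38 and -0.31. These 3 probes, matched to the same RefSeq transcript, gave differences of similar size with each strain. The remaining probe (chr15:100223347-100223406), assigned to another RefSeq transcript, read 1153, 649 and 704 and was lower by more, -0.68 with LOC1 and -0.57 with LOC3. None of the 4 was past 2-fold, and whether the difference between probes reflects the transcripts was not tested.

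Slc40a1, ferroportin, the only known cellular iron exporter, was higher with both strains. Its intensity was 353 on the LPS array, 495 after LOC1 and 413 after LOC3 on the probe at chr1:45965255-45965314. The log2 difference was 0.63 with LOC1, which is 1.55-fold, and 0.37 with LOC3, and 16.7% and 33.3% of all genes were at least as far. LOC1 exceeded LOC3 by 0.27, and at most 1 repeated probe per array lay within 2-fold of this signal, so its spot error is unknown. A second probe (chr1:45980637-45980696) was not well above background on any array and carries no difference. A median over both probes gave 0.30 with LOC1 and -0.09 between strains. It takes the second probe at the lowest signal well above background of each array, so those values say nothing about the transcript.

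The metallothioneins bind zinc and are brought up by metal load and by inflammatory signals, and their probes were bright. Mt1 read 118714 on the LPS array, 87597 after LOC1 and 86328 after LOC3 in intensity on its brighter probe (chr8:96704165-96704224), a difference of -0.29 and -0.32. Its other probe, 321 bases away and matched to an Ensembl transcript, read 212, 190 and 184, with differences of -0.01 and -0.06. The probes of Mt1 thus gave differences of unlike size. The brighter one was below the LPS array by more than 2 times the spot SD of bright probes, which does not apply to the dimmer one. Mt2 read 122166 on the LPS array, 108451 after LOC1 and 109913 after LOC3 (chr8:96697371-96697430), and its difference was -0.03 with LOC1 and -0.01 with LOC3. Of all genes, 94.2% were at least as far from the LPS array as Mt2 with LOC1 and 96.7% with LOC3, and the sign of Mt2 turned positive, 0.16 and 0.15, when the arrays were scaled by their median instead.

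The zinc transporters were on opposite sides. Slc39a14, the importer of zinc and of iron that is not bound to transferrin, read 2162 on the LPS array, 892 after LOC1 and 1042 after LOC3 in intensity (chr14:70703394-70703453). It was lower by 1.13 with LOC1 on the log2 scale, 2.19-fold, and by 0.92 with LOC3, 1.89-fold. Among all genes, 4.66% differed by at least this much with LOC1 and 7.42% with LOC3, and it had the largest difference of the 10 genes with each strain. Scaling the arrays by their median put it at -0.95 with LOC1, short of 2-fold. Slc30a1, the exporter, read 2128 on the LPS array, 2930 after LOC1 and 2815 after LOC3 in intensity (chr1:193736760-193736819). It was higher by 0.61 with LOC1, 1.52-fold, and by 0.54 with LOC3, 1.45-fold, and 17.9% and 19.7% of all genes were as far. Each of these transporters has 1 probe, so neither value has a second probe behind it.

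**Figure D3:**
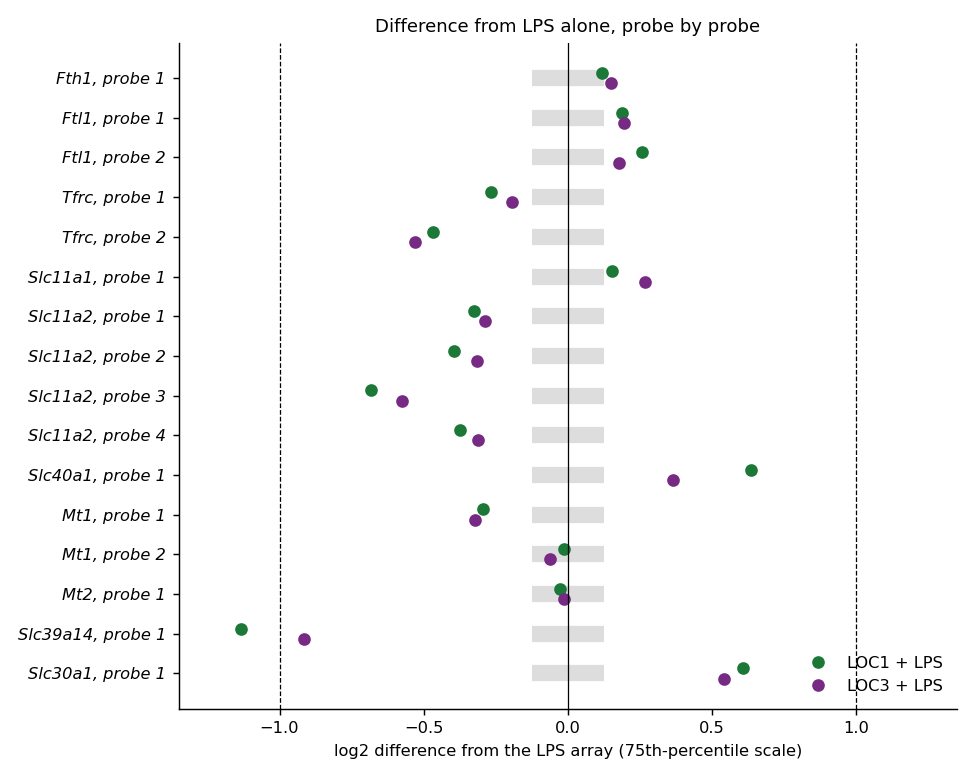
Log2 difference from the LPS array of each detected probe of the 10 genes, for LOC1 and LOC3 before LPS, with dashed lines at 2-fold. Grey bands extend 2 times the spot SD of bright probes to either side of no difference. They give no spot error for Tfrc, Slc11a2, Slc40a1, Slc39a14 or Slc30a1. Slc39a14 is the only gene past 2-fold, with LOC1, and Slc40a1 and Slc30a1 stand highest.

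The strains were compared directly with each other, which uses no LPS array. None of the 10 genes was past 2-fold between LOC1 and LOC3, where 2.63% of 19382 genes were. Slc40a1, higher with LOC1 by 0.27, and Slc39a14, lower with LOC1 by 0.22, lay farthest apart. Slc11a1 followed at -0.12. Fth1, Ftl1, Tfrc, Mt1, Mt2, Slc11a2 and Slc30a1 differed by at most 0.07 in either direction on their brightest probes. The median over the 10 genes was -0.02.

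The response to LPS itself was read from the deposited log2 ratios, which the authors listed only where a probe differed at least 2-fold from unchallenged macrophages. Of the 16 probes of these genes well above background on the LPS array, 6 were listed for LPS, 5 of them higher and 1 lower, beside 17% of all such probes on the array, 10.3% higher and 6.68% lower. Slc11a2 stood 1.92 above unchallenged macrophages with LPS on its brightest probe, 3.79-fold. On the probe assigned to another RefSeq transcript it stood 4.58 above, 23.9-fold, from an implied unchallenged intensity of 48.3. Slc39a14 was 1.55 above, 2.93-fold, Mt1 was 1.33 above on its dimmer probe, 2.51-fold, and Mt2 was 1.08 above, 2.11-fold. Slc40a1 was 3.12-fold lower with LPS, at -1.64. Slc30a1 was not listed for LPS, and its ratio rebuilt from the intensities was 0.89, or 1.85-fold. Fth1, Ftl1, Tfrc and Slc11a1 have no probe in the deposited table. That absence cannot be read as a response under 2-fold, since 16 of 149 detected probes that spanned over 4-fold between the 3 arrays are also absent.

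The same reference gives the place of the lactobacilli-treated arrays, with the LPS array in each comparison above being shared. For Slc39a14 the log2 ratio to unchallenged macrophages stood at 1.55 for the LPS array, 0.42 for LOC1 and 0.64 for LOC3, both strains' values being rebuilt from the intensities. For Slc40a1 it stood at -1.64 for LPS, -1.01 for LOC1 and -1.27 for LOC3. Both genes were thus nearer to unchallenged macrophages with either strain than with LPS alone. Slc30a1 was farther from them, 1.85-fold above with LPS, 2.82-fold with LOC1 and 2.70-fold with LOC3. Mt2 held nearly the same place in all 3 conditions, at 1.08, 1.05 and 1.07. Mt1 stood at 1.33, 1.31 and 1.27 on its dimmer probe, while its brighter probe, which was lower than LPS by 0.29 with LOC1 and 0.32 with LOC3, has no deposited ratio. Slc11a2 remained well above unchallenged macrophages throughout, at 1.92, 1.60 and 1.64 on its brightest probe and 4.58, 3.90 and 4.01 on the other.

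**Figure D4:**
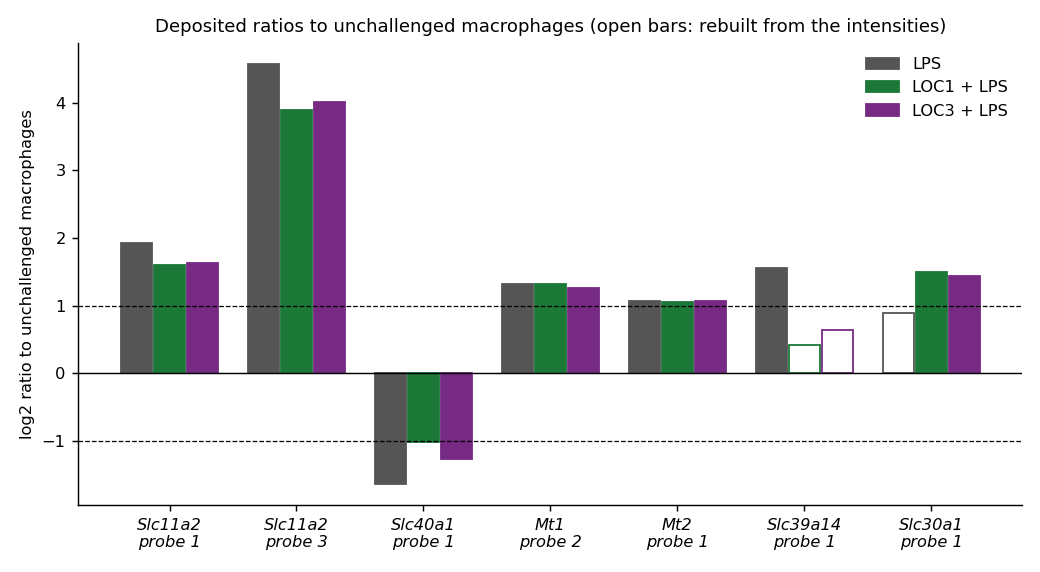
Log2 ratio to unchallenged macrophages of the 7 probes of these genes in the deposited table, for LPS, LOC1 and LOC3, where open bars were rebuilt from the intensities and dashed lines mark 2-fold. Slc39a14 lay at 1.55 with LPS against 0.42 with LOC1, and Slc40a1 was below unchallenged macrophages on all 3 arrays.

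Other genes of iron, heme and zinc biology were taken from 4 lists of 72 genes in all. Among 19 genes of iron transport and storage, 13 could be compared, and with LOC1 1 was past 2-fold higher and 2 lower, with a median of 0.13. With LOC3 the counts were 1 and 1, with a median of 0.11. Of all genes, 6.21% were past 2-fold in either direction with LOC1 and 6.11% with LOC3. Their medians were 0.03 and 0.07. Lcn2, the siderophore-binding lipocalin that keeps iron from bacteria, was the higher one, reading 68833 on the LPS array, 130398 after LOC1 and 128129 after LOC3. That is a difference of 1.07 with LOC1 and 1.03 with LOC3, and its other probe gave 1.29 and 1.10. The lower ones were Trf, transferrin, and Lrp1, a receptor that takes up heme bound to hemopexin. Trf read 22385 on the LPS array, 9064 after LOC1 and 10510 after LOC3, or -1.16 and -0.95. Lrp1 gave -1.23 and -1.12 on its brightest probe. Across its probes it ran from -2.24 to -0.50 with LOC1 and from -1.69 to -0.05 with LOC3. Slc39a8, a zinc and iron importer of the same family as Slc39a14, was higher by 0.46 and 0.51, the opposite side from Slc39a14. Ncoa4, the ferritin cargo receptor, differed by -0.11 and -0.10, Steap3 by 0.05 and 0.04, and Cp, ceruloplasmin, by 0.29 and 0.41 with probes on both sides of 0. Steap4 was not well above background on any array.

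Of 9 genes of iron regulation 5 could be compared, and with LOC1 the median was -0.77. With LOC1, 2 were past 2-fold lower, Hamp among them only as a bound, and none higher. Lower by that much were 3.5% of all genes, whose median difference was 0.03. With 5 genes, a shift of the list was not tested. Fbxl5, which targets iron regulatory protein for degradation, read 6774 on the LPS array, 2659 after LOC1 and 3563 after LOC3, or -1.20 and -0.79. Hamp, hepcidin, was dim, 33.9 with LPS and not well above background with either strain, and the LPS signal was at least 2.11-fold above that with LOC1 and at least 1.56-fold above that with LOC3. The iron regulatory proteins themselves were close to the LPS array, Aco1 at -0.21 and -0.16 and Ireb2 at 0.25 and 0.23. With LOC3 no gene of this list was past 2-fold, where 6.11% of all genes were. The median was -0.64, which is the bound of Hamp, beside 0.07 over all genes.

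Of 20 genes of heme and iron-sulphur metabolism 18 could be compared, with medians of 0.04 and 0.06 and 1 past 2-fold, lower, with each strain. Past 2-fold in either direction were 6.21% of all genes with LOC1 and 6.11% with LOC3. The lower gene was Hp, haptoglobin, which was 80.9 with LPS, not well above background with LOC1 and 24.5 with LOC3. This put LOC1 at least 5.04-fold below LPS and LOC3 3.00-fold below it. Hmox1, heme oxygenase, differed by -0.33 and -0.21, and the mitochondrial iron importer Slc25a37 by 0.21 and 0.38. Among 24 zinc genes, 19 could be compared and none was past 2-fold with either strain on its brightest probe, with medians of 0.12 and 0.10. A dimmer probe of Slc30a9 gave a bound of -1.16 with LOC1. Mtf1 differed by 0.14 and 0.19, and Slc39a10 by -0.03 and -0.23 at a dim signal. None of the 4 lists had a gene past 2-fold between LOC1 and LOC3 on its brightest probe, where 2.63% of all genes were. A dimmer probe of Abcb8 gave bounds of 2.08 for LOC3 against LPS and -2.10 for LOC1 against LOC3. Of the 94 probes of these 72 genes well above background on the LPS array, 15 were listed against unchallenged macrophages for LPS, 14 higher and 1 lower, which is 16.0% beside 17% of all such probes on the array. For 6 of the 14 the implied unchallenged signal was too dim to be measured, so they carry only a bound. Lcn2 was 124-fold and Cp 21.0-fold above, both on a probe that is not the brightest of the gene, and Fbxl5 was 4.14-fold above.

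**Figure D5:**
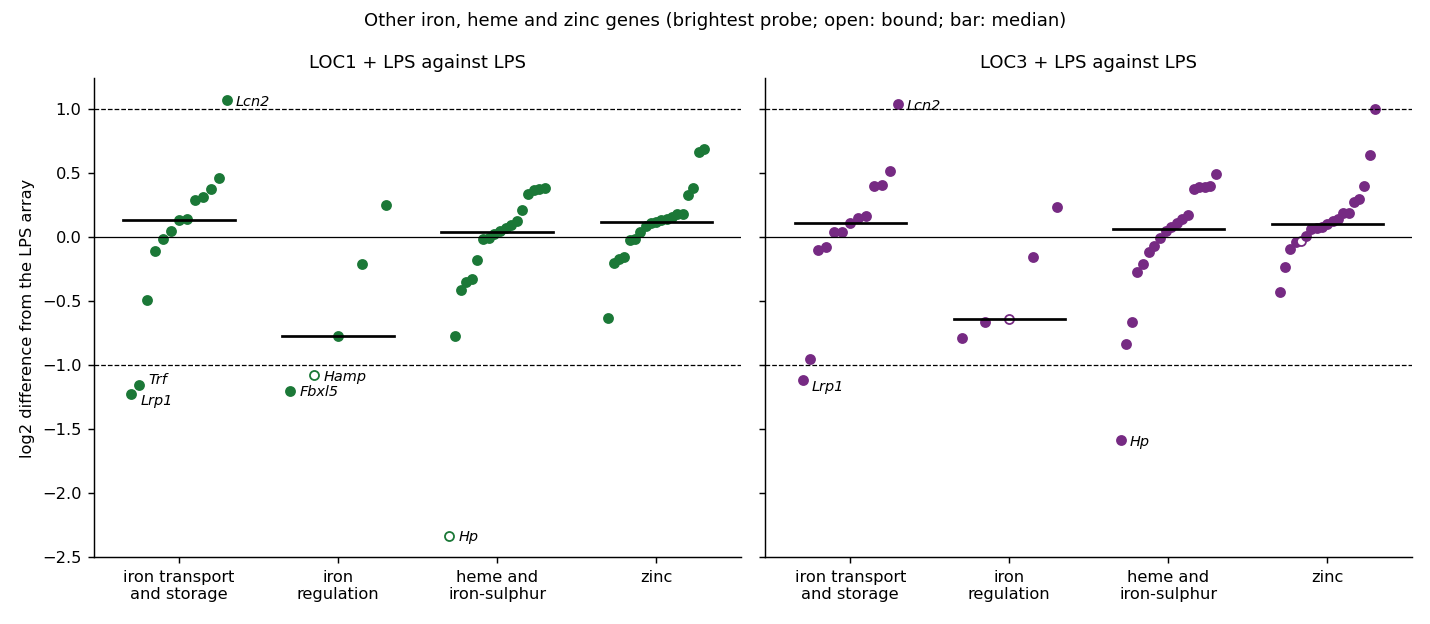
Log2 difference from the LPS array of the other iron, heme and zinc genes by list, on their brightest probe, with the median of each list as a bar and open points for bounds. Lcn2 was past 2-fold higher with both strains, and no zinc gene was past 2-fold.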

How the data were processed

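RNA of 3 conditions was hybridised to 1-colour Agilent mouse arrays, 1 array per condition, all on 1 slide and from 1 scan. The intensity of each spot was deposited by the authors after background subtraction in Feature Extraction, version 12.0.3.1 per the file headers (the methods name another), with no normalization between arrays. The authors also deposited log2 ratios to unchallenged macrophages for 13135 probes, blank under 2-fold. Per the labels, R 3.2.5 and limma were among the tools. Differences between the deposited columns equalled those of the intensities plus a constant within 0.001 for 100% of the probes checked, 3364 to 4609 per pair of columns. These probes were printed once, listed in both columns and well above background on all 3 arrays.

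Outlier spots (118 to 135 per array) were left out, spots of a probe were averaged, and log2 intensity less the 75th percentile over probes was compared for genes that 1 or both arrays of a comparison showed well above background. A dim signal was raised to the lowest signal well above background (14.5 to 19.8), which makes its difference a bound. No spot was saturated. Of 56605 probes, 33767 matched a RefSeq accession, and 15 of the 17 probes of the 10 genes did, all under the same symbol. The text names the 10 genes, every other gene of the iron, heme and zinc lists past 2-fold with either strain, 13 preset genes, the reference genes Actb and Gapdh, and some cell type markers. The 10 genes, lists and settings were chosen with earlier results of these data known. The t-test of the methods needs replicates and was not run. Python 3.11.15, numpy 2.4.6, pandas 2.3.3, matplotlib 3.10.9, R 4.3.3 and limma 3.58.1 (normexp, offset 50) were used, and the procedure was tested on simulated data. The number of arrays limits the precision.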

Additional observations from a re-analysis of the deposited data

How the results depend on the processing

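No paired analysis was possible because each condition has 1 array. The median difference of the 10 genes from LPS was 0.05 with LOC1 and 0.07 with LOC3. It was 0.23 and 0.23 under scaling by the median, -0.0275 and -0.0142 when only probes detected on all arrays set the 75th percentile, -0.0593 and -0.0832 under quantile normalization, and -0.0188 and -0.0349 from the deposited ratios, which cover 4 of the genes. Between strains it was -0.02, and 0.0465 from the deposited ratios of 5 genes. With LOC1 the number of these genes past 2-fold was 1, and it was 0 under median scaling, 0 at 3-fold, 0 from the deposited ratios, which do not list Slc39a14 with LOC1, and 3 at 1.5-fold. With LOC3 it was 0, and 1 at 1.5-fold. Median scaling moved the median of all genes to 0.22 with LOC1 and 0.23 with LOC3. Against LPS, Mt2 changed sign with both strains under it, and Fth1 with LOC3 did under quantile normalization. Slc39a14 with LOC1 ranged from -1.21 to -0.95. Across the array, 1244 genes past 2-fold with LOC1 became 423 under normexp and 3796 with no filter and no floor. With LOC3, 1210 became 418, 3717 and, with signal required on both arrays, 711, and between strains 510 became 152, 2818 and 106. The higher share was 43.6% with LOC1 and 52.3% with LOC3, and 65.7% and 70.3% under median scaling. The 75th percentile over spots, chosen after the data were seen, left the count of these genes past 2-fold as it was in all 3 comparisons.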
